A study of Mus musculus with 8 samples.

Results

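The 7 genes H19, Igf2, Afp, Gpc3, Igf2bp2, Igf2bp3 and Scd2 were followed liver by liver, out of 24451 genes with a value. They are oncofetal genes of the liver or close relatives of such genes, and they were picked by symbol after their values in these livers were known, so what is given of them between the groups is a description without a test. The left lobe of the liver was taken for bulk RNA sequencing from 4 mice labelled Brap LKO and from 4 controls labelled Brap F/F. The animals were C57BL/6, aged 18 wk and fasted for 6 h, and both groups carry loxP sites in both copies of Brap (Brap fl/fl). The Brap LKO mice also carry Cre driven by the Alb promoter, which is active in hepatocytes, and the Brap F/F mice carry no Cre. The question was how the liver transcriptome differs without hepatic Brap, which encodes a ubiquitin ligase.

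Oncofetal genes are active in the fetal organ, are shut down after birth and often return in tumours or in regenerating tissue. H19 and Igf2 are neighbouring imprinted genes that share enhancers: H19 is a long noncoding RNA made from the maternal chromosome, and Igf2, made from the paternal one, encodes a fetal growth factor. Afp encodes the fetal counterpart of albumin and Gpc3 a cell surface heparan sulfate proteoglycan, both used as markers of hepatocellular carcinoma. Igf2bp2 and Igf2bp3 encode RNA-binding proteins named for their binding to Igf2 mRNA, and Scd2 a fatty acid desaturase that mouse liver uses around birth, while the adult liver relies on Scd1.

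Total counts on genes were 30125618, 33313914, 28639884 and 26735149 reads in replicates 1 to 4 of Brap LKO, against 26280884, 32182759, 30431452 and 31455553 in replicates 1 to 4 of Brap F/F. The values are normalized counts, that is, reads on a gene divided by the size factor of the liver, and 1 read was worth between 0.850 and 1.14 of them. Log2 fold changes are differences of the group means of log2(normalized count + 1), Brap LKO minus Brap F/F, and for genes with few reads they come out smaller than the change in counts. Tests of other genes used limma with Benjamini-Hochberg adjustment over the 15352 genes with a mean of at least 5. Brap itself had normalized counts of 4042, 4203, 4065 and 3641 in replicates 1 to 4 of Brap LKO, against 4410, 4235, 3994 and 4106 in replicates 1 to 4 of Brap F/F (log2 fold change -0.07, standard error 0.07, limma adjusted p = 0.631). Cre takes out only part of the gene and coverage of its exons was not analysed here, so the genotype labels were taken as given. The tissue label was checked with markers: none of 15 hepatocyte genes was at or under 3 reads in every liver, while 5 of 6 skeletal muscle genes were.

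The control livers were not alike. On the first principal component of the tested genes, which held 37.2% of the variance, Brap F/F replicates 2 and 3 scored 0.58 and 0.56, whereas Brap F/F replicates 1 and 4 scored 0.01 and -0.14. The Brap LKO livers scored -0.22, -0.21, -0.10 and -0.48, with replicate 4 farthest from these controls. Brap F/F replicates 2 and 3 come from animals with adjoining numbers, and a setting without both was added after seeing the data. H19 had the weight of rank 3 among the 15352 genes towards the side of the low scores, Igf2bp3 that of rank 28, Afp of 157, Scd2 of 1067, Igf2 of 1221, Gpc3 of 6627 and Igf2bp2 of 9218. All Brap LKO livers lay on that side too, and genes that vary more get larger weights. A rank thus does not show that a gene follows the split of the controls. Among the Brap F/F livers H19 was highest in replicates 2 and 3 (5.09 and 7.36 normalized counts), and Igf2bp3 had at most 2 reads. Afp was lowest in replicates 2 and 3 (18.3 and 12.6). The acute phase gene Saa1 had 6111, 344, 377 and 11160 normalized counts in Brap F/F replicates 1 to 4, and 1071, 2415, 2572 and 4936 in Brap LKO replicates 1 to 4. Saa1 was chosen after its values were seen, and its part in the results below was not tested.

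H19 lies at chr7:142575529-142578143 on the minus strand (mm10) and carries miR-675 in an exon. The precursor shares 84 bases, or 3.41%, of the H19 exon bases. The mature arms are shown because they are the part of H19 known to act as small RNAs. They come from RefSeq (GRCm38.p6), at chr7:142577112-142577133 and chr7:142577078-142577099 on the minus strand, with the seed (bases 2 to 8) in capitals. The arms have different seeds, and mature miRNAs were not measured in these mRNA libraries.
miR-675-5p: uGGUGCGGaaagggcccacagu
miR-675-3p: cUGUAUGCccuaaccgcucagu

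H19 had normalized counts of 75.6, 680, 13.2 and 3153 in replicates 1 to 4 of Brap LKO, against 3.42, 5.09, 7.36 and 3.92 in replicates 1 to 4 of Brap F/F. Every Brap LKO liver was above every Brap F/F liver, but replicate 4 was 240-fold above replicate 3. Replicate 3 rested on 13 reads, whose exact 95% Poisson interval of 7 to 22.5 normalized counts (counting error only) overlapped that of each Brap F/F liver, while the other Brap LKO livers lay clear of them. Means were 980 ± 1479 for Brap LKO and 4.95 ± 1.75 for Brap F/F (SD, n = 4 each), a ratio of 198. The log2 fold change was 5.25, with SDs on that scale of 3.44 among Brap LKO livers and 0.40 among Brap F/F livers. Only 2 tested genes had a larger log2 SD among the Brap LKO livers, where the median gene had 0.17. Without Brap LKO replicate 4 the log2 fold change was 3.97, and without Brap LKO replicate 3 it was 6.57.

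**Figure D1:**
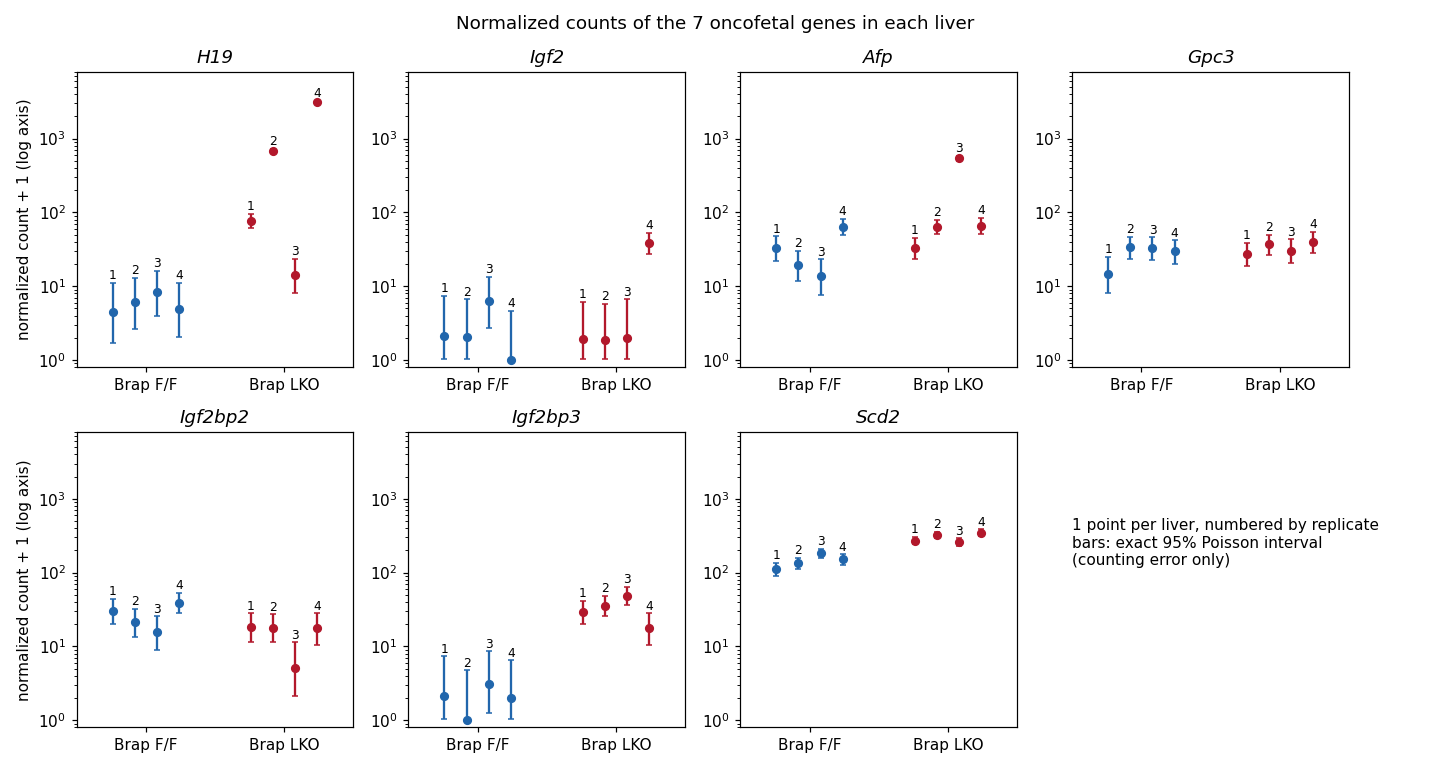
Normalized count plus 1 (log axis) of each of the 7 genes, with 1 point per liver numbered by replicate, Brap F/F in blue and Brap LKO in red, and bars for exact 95% Poisson intervals that cover counting error only. H19 spreads from 13.2 to 3153 among the Brap LKO livers, Igf2 is high in replicate 4 alone, Afp in replicate 3 alone, and Igf2bp3 and Scd2 are higher in all 4 Brap LKO livers than in any Brap F/F liver.

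Igf2, 72.6 kb from H19 at chr7:142650766-142666816 on the minus strand, had 1, 1, 1 and 36 reads in replicates 1 to 4 of Brap LKO, against 1, 1, 5 and 0 reads in replicates 1 to 4 of Brap F/F. Brap LKO replicate 4 thus held 37.4 normalized counts, 7.12-fold the highest Brap F/F liver (5.26 in replicate 3), and the other Brap LKO livers lay within the range of the controls. Replicate 4 was also the liver with the most H19, but replicate 2, with 680 normalized counts of H19, had 0.850 of Igf2. Igf2 passed the filter of a mean of 5 only through replicate 4. The log2 fold change of 0.83 turned to -0.25 without that liver. Of the Igf2 exon bases, 62.8% belong also to the readthrough gene Gm49394 on the same strand, which had 2.08 normalized counts in Brap LKO replicate 4 and 0 in every other liver, and 1.71% to the antisense gene Igf2os. How the authors' counting treated strand and shared bases is not given in the sources used here.

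RefSeq lists 4 starts for Igf2, with a window of 250 bases before and 50 after each. These and the windows of Afp, Gpc3, Igf2bp2 and Igf2bp3, which made 8 windows for 5 of the 7 genes, were searched on both strands for the core of the TEAD motif (GGAATG, or CATTCC on the other strand), bound by the transcription factors of the Hippo pathway, and for the TATA box (TATAAA, or TTTATA). The letters were held by 14.7% and 13.6% of the 32851 RefSeq windows of the same length. The TEAD letters occurred in 3 of the 4 Igf2 windows and in no window of another of the 7 genes. The window with the most matches, at chr7:142661222-142661521 on the minus strand, is shown with its 2 matches in capitals, which begin 218 and 112 bases before the start. A match is a description of letters, and binding was not measured.
Igf2 promoter: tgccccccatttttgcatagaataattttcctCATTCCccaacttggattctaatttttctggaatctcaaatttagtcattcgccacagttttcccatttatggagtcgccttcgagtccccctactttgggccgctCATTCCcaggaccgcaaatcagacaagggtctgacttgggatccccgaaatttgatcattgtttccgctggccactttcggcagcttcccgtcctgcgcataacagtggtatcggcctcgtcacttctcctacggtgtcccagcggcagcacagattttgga

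Afp lies at chr5:90490737-90508907 on the plus strand, beside Alb. It had normalized counts of 31.9, 62.9, 539 and 64.5 in replicates 1 to 4 of Brap LKO, against 31.9, 18.3, 12.6 and 62.8 in replicates 1 to 4 of Brap F/F. Brap LKO replicate 3 alone stood out, while the other 3 Brap LKO livers reached at most 64.5, against 62.8 in the highest control. This was the Brap LKO liver with the least H19, and the level of Afp in it was 8.25-fold that of the next of the 8 livers (after adding 1 to both), a step that only 2 tested genes reached, Afp included. Means were 175 ± 244 for Brap LKO and 31.4 ± 22.4 for Brap F/F (SD, n = 4 each). The log2 fold change of 1.77 moved to 0.92 without Brap LKO replicate 3.

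The Afp promoter is shown because Afp was the gene of the 7 whose single high value was in a liver other than the one with the most H19. In the RefSeq window at chr5:90490464-90490763 on the plus strand, capitals mark the TATA letters. They begin 30 bases before the first base of Afp in the GENCODE annotation and 7 bases before the RefSeq start.
Afp promoter: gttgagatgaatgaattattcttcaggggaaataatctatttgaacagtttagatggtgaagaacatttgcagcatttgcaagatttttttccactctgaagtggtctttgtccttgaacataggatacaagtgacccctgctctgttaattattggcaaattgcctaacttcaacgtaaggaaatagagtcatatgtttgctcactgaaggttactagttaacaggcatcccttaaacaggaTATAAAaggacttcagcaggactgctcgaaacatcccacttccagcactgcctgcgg

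In the albumin family around it, none of the 3 tested genes passed the threshold with limma, edgeR or DESeq2, and 1 had an unadjusted p under 0.05, which 15.8% of all tested genes had. All 3 log2 fold changes were below 0, with a median of -0.31. Alb, 14.1 kb from Afp, averaged 1703127 ± 307004 normalized counts for Brap LKO and 2441604 ± 472346 for Brap F/F, SD with 4 livers each (log2 fold change -0.52, limma adjusted p = 0.634). Afm, 10 kb on the other side, had a log2 fold change of -0.31 (limma adjusted p = 0.281), and Gc, the other abundant relative, one of -0.11 (limma adjusted p = 0.745). Per kb of the longest transcript, Afp reached 84.6 normalized counts in the Brap LKO livers on average, where the mean of Alb over the 8 livers was 1018862.

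Igf2bp3, at chr6:49085223-49214957 on the minus strand, had normalized counts of 28.2, 34.8, 47.6 and 16.6 in replicates 1 to 4 of Brap LKO. Replicates 1 to 4 of Brap F/F had 1, 0, 2 and 1 reads. It was the most even of the genes that were near zero in the controls, since all 4 Brap LKO livers held it and their values differed by 2.86-fold. Against a floor of 3 reads in each Brap F/F liver, the mean of the Brap LKO livers was at least 10.1-fold higher, the lowest liver at least 5.30-fold and the highest at least 15.1-fold. The fitted log2 fold change was 4.01. It is no bound, as it changed to 2.54 with a pseudocount of 5. Of the Igf2bp3 exon bases, 18.7% are shared with Malsu1, a gene read from the other strand with a log2 fold change of -0.15 (limma adjusted p = 0.396).

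Igf2bp2, at chr16:22059009-22163299 on the minus strand, had a lower mean in the Brap LKO livers, though the groups overlapped. It had normalized counts of 17.3, 17, 4.05 and 16.6 in replicates 1 to 4 of Brap LKO, against 29.6, 20.3, 14.7 and 38.3 in replicates 1 to 4 of Brap F/F. The overlap lay between 14.7 and 17.3, and Brap LKO replicate 3, the liver with the most Igf2bp3, had the least Igf2bp2, on 4 reads. The log2 fold change of -0.95 moved to -0.49 without that liver. Per kb of the longest transcript, the Brap LKO means were 2.78 normalized counts for Igf2bp2 and 7.32 for Igf2bp3, whereas the Brap F/F means were 5.20 and 0.243. The third family member, Igf2bp1, had at most 1 read in any liver.

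The promoter windows of this pair are shown because the 2 genes are relatives of which only Igf2bp3 had every Brap LKO liver above every Brap F/F liver. Neither window held any of the motif letters, and both are rich in CG dinucleotides, which are in capitals. Igf2bp3 has 25 of them and Igf2bp2 has 47, more than 81.6% and 98.6% of all windows. This was not particular to the pair. The Gpc3 window has 30 (more than 88.3% of all windows), the Igf2 windows have from 2 to 24, and the Afp window has 3. The windows of Igf2bp3 and Igf2bp2 lie at chr6:49214905-49215204 and chr16:22163250-22163549, both on the minus strand. Methylation was not measured.
Igf2bp3 promoter: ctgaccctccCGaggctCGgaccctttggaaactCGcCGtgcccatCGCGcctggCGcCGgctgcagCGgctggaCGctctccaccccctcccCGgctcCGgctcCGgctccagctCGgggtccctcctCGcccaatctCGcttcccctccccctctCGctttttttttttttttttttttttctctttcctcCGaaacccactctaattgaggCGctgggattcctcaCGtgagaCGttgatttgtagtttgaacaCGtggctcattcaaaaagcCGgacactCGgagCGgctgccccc
Igf2bp2 promoter: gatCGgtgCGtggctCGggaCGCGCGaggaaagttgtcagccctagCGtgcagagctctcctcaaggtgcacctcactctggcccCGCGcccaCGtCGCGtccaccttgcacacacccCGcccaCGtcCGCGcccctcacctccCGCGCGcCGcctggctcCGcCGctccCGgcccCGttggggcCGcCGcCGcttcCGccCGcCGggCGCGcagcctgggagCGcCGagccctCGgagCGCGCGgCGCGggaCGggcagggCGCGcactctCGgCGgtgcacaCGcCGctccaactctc

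Gpc3, at chrX:52272426-52613950 on the minus strand, had normalized counts of 26.4, 35.7, 29.3 and 38.5 in replicates 1 to 4 of Brap LKO, against 13.7, 32.5, 31.5 and 28.5 in replicates 1 to 4 of Brap F/F. The groups overlapped, and the lowest value was that of Brap F/F replicate 1. Without this liver the log2 fold change of 0.34 moved to 0.06. Gpc4, 107 kb away, had a log2 fold change of 0.05 (limma adjusted p = 0.739). Scd2, at chr19:44293674-44306864 on the plus strand, had normalized counts of 271, 324, 258 and 345 in replicates 1 to 4 of Brap LKO, against 111, 132, 182 and 150 in replicates 1 to 4 of Brap F/F. The groups did not overlap and both were narrow, with means of 299 ± 41.8 and 144 ± 30.1 (SD, n = 4 each) and a log2 fold change of 1.07. Leaving out any 1 liver kept this value between 0.95 and 1.19.

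In 3 of the 7 genes, H19, Igf2bp3 and Scd2, every Brap LKO liver was above every Brap F/F liver, as in 5.48% of all tested genes, and in 0 of the 7 every Brap LKO liver was below, as in 4.39%. The genes were selected on these values, so nothing is read from that share. All 7 passed the filter, but H19, Igf2 and Igf2bp3 did so only through Brap LKO livers, and 4 of the 7 had a mean of at least 5 in the Brap F/F livers alone. Per kb of the longest transcript, the order of the Brap LKO means was H19 (429 normalized counts per kb), Afp (84.6), Scd2 (54.9), Gpc3 (14.7), Igf2bp3 (7.32), Igf2bp2 (2.78) and Igf2 (2.13). In the Brap F/F livers it was Scd2 (26.3), Afp (15.2), Gpc3 (12.0), Igf2bp2 (5.20), H19 (2.16), Igf2 (0.392) and Igf2bp3 (0.243). In the Brap LKO livers this order did not hold liver by liver. The range of H19 overlapped those of Afp, Scd2, Gpc3, Igf2bp3 and Igf2, that of Afp overlapped those of Scd2 and Gpc3, and that of Igf2 those of Igf2bp3 and Igf2bp2. Afp was above Scd2 in replicate 3 alone. In the Brap F/F livers the ranges of neighbours in this order overlapped except for H19 and Igf2, and Igf2 and Igf2bp3 rested on at most 5 reads.

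The livers were not ordered alike by the 7 genes. Among the Brap LKO livers, replicate 4 had the most H19, Igf2, Gpc3 and Scd2 and the least Igf2bp3, and replicate 3 had the most Afp and Igf2bp3 and the least H19, Igf2bp2 and Scd2. A value at least 4-fold above that of every other liver, after adding 1, occurred in 8 of the 15352 tested genes, and H19, Igf2 and Afp were among them. Of these 8, 4 had it in Brap LKO replicate 4 and 1, Afp, in Brap LKO replicate 3. Without Brap F/F replicates 2 and 3 the log2 fold changes were 5.56 for H19, 1.47 for Igf2, 1.02 for Afp, 0.67 for Gpc3, -1.41 for Igf2bp2, 3.90 for Igf2bp3 and 1.20 for Scd2. With all 8 livers scaled by quantiles, to the same total or by TMM factors, each of the 7 log2 fold changes kept its sign. The same total moved the median log2 fold change of all tested genes from -0.01 to 0.15.

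**Figure D2:**
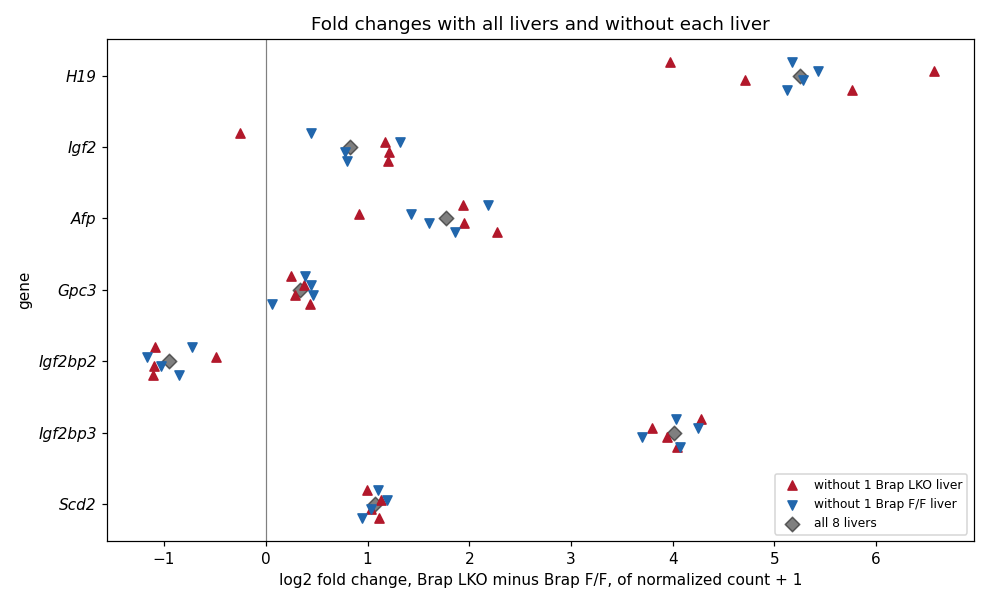
Log2 fold change of each of the 7 genes (horizontal axis, Brap LKO minus Brap F/F, of normalized count plus 1) with all 8 livers (diamonds) and without each Brap LKO liver (upward triangles) or each Brap F/F liver (downward triangles). Igf2 crosses 0, at -0.25, without Brap LKO replicate 4, H19 ranges from 3.97 to 6.57, and Igf2bp3 and Scd2 stay within 3.70 to 4.28 and 0.95 to 1.19.

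Genes with patterns like those of the 7 were sought by the Pearson correlation of log2(normalized count + 1) over the 8 livers, as a description without a p, in livers that also share their group and depth. Closest to H19 were C030015A19Rik (r = 0.98), Gpr141b (0.97) and Olfml2a (0.96). C030015A19Rik had 53.7, 66.3, 50.6 and 68.6 normalized counts in replicates 1 to 4 of Brap LKO and between 46.7 and 50.5 in the Brap F/F livers, so a high r did not come with a like size of change. Olfml2a had 10, 11.9, 6.07 and 22.9 normalized counts in Brap LKO replicates 1 to 4 and at most 4.20 in any Brap F/F liver. Closest to Igf2bp3 were Cib3 (r = 0.98), Msl2 (0.97) and Lrtm2 (0.96). Cib3 had 528, 419, 646 and 409 normalized counts in Brap LKO replicates 1 to 4 and between 38.6 and 48.4 in the Brap F/F livers. Igf2bp3 and Cib3 were both highest in replicate 3 and lowest in replicate 4, but replicates 1 and 2 were in opposite order. Msl2 and Lrtm2 were also lowest in replicate 4, but highest in replicate 2 (1040 and 228 normalized counts). Closest to Scd2 were Cftr (r = 0.98), Agrn (0.97) and Src (0.97), and to Igf2bp2 Reps2 (r = 0.97), Ddx19a (0.95) and Gm42984 (0.94). Igf2 was followed by Agtpbp1 (r = 0.96), Plekha1 (0.95) and Dhx8 (0.92), whose highest value was also in Brap LKO replicate 4. For Afp these were Ttf1 (r = 0.95), Gemin8 (0.93) and Trmt61a (0.92), and for Gpc3 Dzip1 (r = 0.96), Dennd5a (0.95) and Rsph9 (0.95).

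Other genes of the same pathways were read from 17 lists. Of their 259 tested genes outside the 7, 8 were higher and 0 lower in Brap LKO livers, where 0.664% of all tested genes were higher and 0.104% lower (102 and 16 of 15352 genes). These counts depended on each liver. Without replicate 1, 2, 3 or 4 of Brap LKO, 11, 47, 23 and 15 genes were higher and 7, 7, 6 and 6 lower, and 0, 2, 1 and 0 genes of the lists were called. Without replicate 1, 2, 3 or 4 of Brap F/F, 42, 14, 38 and 178 genes were higher and 6, 4, 7 and 54 lower, and 2, 0, 1 and 11 genes of the lists were called. Each of the 8 lost its call without some single livers, which are given with it. The median log2 fold change of all tested genes was -0.01, and 48.0% of them were above 0. An unadjusted p under 0.05 was reached by 15.8% of them (2429 genes), to be set beside the counts at that p in each list.

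The other imprinted genes included a second noncoding RNA from the maternal chromosome. Meg3, of the Dlk1-Dio3 region, had normalized counts of 839, 1215, 672 and 912 in replicates 1 to 4 of Brap LKO, against 210, 30.5, 30.5 and 160 in replicates 1 to 4 of Brap F/F. Every Brap LKO liver was above every control, and Brap F/F replicates 2 and 3 were the lowest. The log2 fold change was 3.55 (standard error 0.61, limma adjusted p = 0.0417), and without these 2 livers it was 2.27 (limma adjusted p = 0.00785). The call was lost without Brap LKO replicate 1, 2, 3 or 4 or Brap F/F replicate 2 or 3 (adjusted p = 0.0731 to 0.143 from limma), with robust eBayes (0.0699) and with the animal number series as a covariate (0.0982).

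Rian and Mirg, the noncoding RNAs that follow Meg3 in that region, were chosen after their values were seen. Rian had 262, 392, 241 and 315 normalized counts in replicates 1 to 4 of Brap LKO, against 69.6, 14.2, 4.20 and 59.9 in replicates 1 to 4 of Brap F/F (log2 fold change 3.63, limma adjusted p = 0.0618). Mirg had 16.4, 41.6, 13.2 and 31.2 in replicates 1 to 4 of Brap LKO, against 12.5, 0, 1.05 and 8.83 in replicates 1 to 4 of Brap F/F (log2 fold change 2.57, limma adjusted p = 0.180). Neither passed the threshold, and both were lowest in Brap F/F replicates 2 and 3, as was Meg3. Unlike H19, these RNAs were held by all 4 Brap LKO livers within a few fold of each other.

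Slc22a3, an organic cation transporter gene imprinted in the placenta, was the other gene of this list to rise. It had 424, 477, 533 and 566 normalized counts in replicates 1 to 4 of Brap LKO, against 274, 264, 246 and 173 in replicates 1 to 4 of Brap F/F (log2 fold change 1.07, standard error 0.16, limma adjusted p = 0.0248), a call lost without any of Brap LKO replicates 1 to 4 or without Brap F/F replicate 2 or 3 (0.0590 to 0.0811). With replicate number as a block the call of Slc22a3 was lost too (limma adjusted p = 0.0617). In all, 2 of 38 tested imprinted genes rose, 0 fell and 26 had a log2 fold change above 0, with a median of 0.16. An unadjusted p under 0.05 was reached by 13, and edgeR called 3 and DESeq2 4. The most abundant per length, Cd81 and Gnas, had log2 fold changes of -0.08 and -0.19 (limma adjusted p = 0.608 and 0.307).

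**Figure D3:**
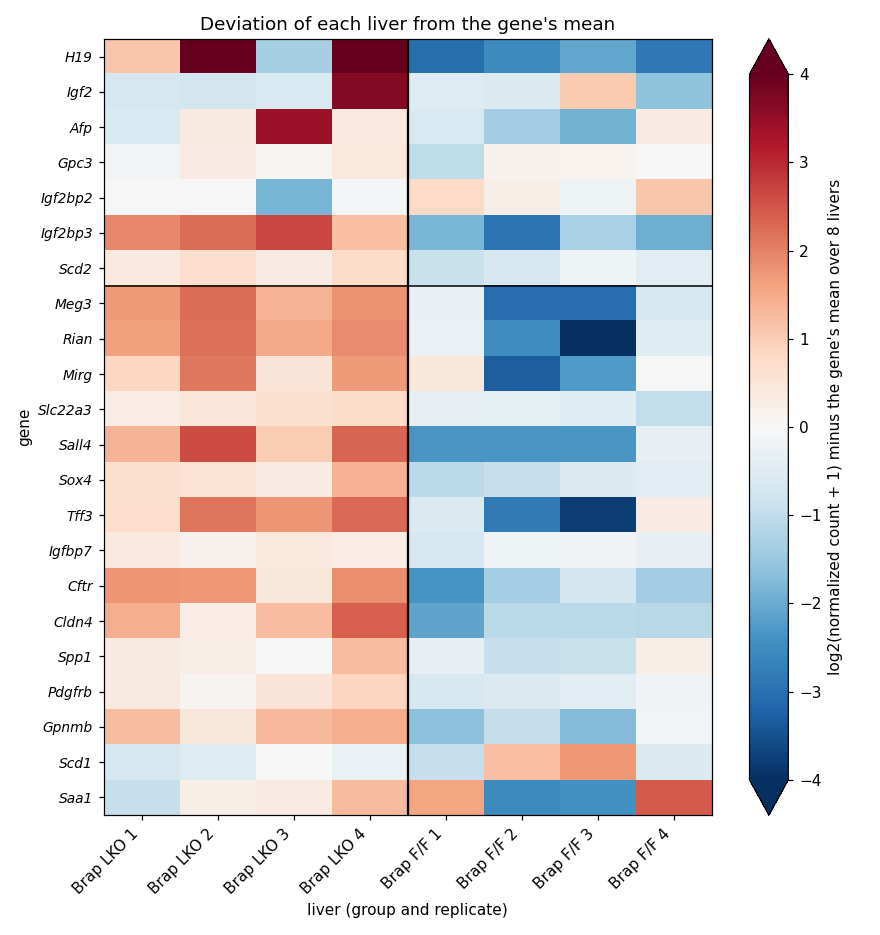
Deviation of log2(normalized count + 1) in each liver (columns, by group and replicate) from the gene's mean over the 8 livers, in red above and blue below, for the 7 genes (above the horizontal line) and for other genes named in the text. H19, Igf2 and Afp are dark red in 1 or 2 Brap LKO livers, whereas Igf2bp3, Meg3, Rian and Sall4 are red in all 4, and Meg3, Rian, Mirg, Tff3 and Saa1 are lower in Brap F/F replicates 2 and 3 than in Brap F/F replicates 1 and 4.

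Of the further fetal liver and liver tumour markers, 2 of 26 tested genes rose and 0 fell. Sall4, a zinc finger transcription factor of fetal liver, had 11.8, 29.7, 9.11 and 23.9 normalized counts in replicates 1 to 4 of Brap LKO, against 0, 0, 0 and 2.94 in replicates 1 to 4 of Brap F/F, where it never exceeded 3 reads. Against the floor of 3 reads per liver its mean was at least 5.94-fold higher (limma adjusted p = 0.0298). Sox4, another developmental transcription factor, had 133, 127, 106 and 225 in replicates 1 to 4 of Brap LKO, against 41.0, 44.7, 56.8 and 63.8 in replicates 1 to 4 of Brap F/F (log2 fold change 1.46, standard error 0.24, limma adjusted p = 0.0349). Both genes were thus higher in 4 of 4 Brap LKO livers, and both were lost without any 1 of 7 livers, all but Brap F/F replicate 4 (0.0570 to 0.0975 for Sall4 and 0.0570 to 0.119 for Sox4), and without Brap F/F replicates 2 and 3 together (0.0709 and 0.0698). Sox4 was also lost under quantile normalization (0.0586).

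With these calls included, 24 of the 26 genes had a log2 fold change above 0 and 13 an unadjusted p under 0.05, which 15.8% of all tested genes had, while edgeR called 2 and DESeq2 6. The median was 0.62, also with 2 genes at their lower bounds. The list shares Epcam (log2 fold change 0.96) and Sox9 (0.72) with the cholangiocyte list, of which 11 of 11 tested genes were above 0 with a median of 0.95. Of the stellate cell and fibroblast genes 11 of 12 were above 0, with a median of 0.71. The part of these cells in the levels of the fetal markers was not tested. Tff3, a secreted trefoil peptide named after its values were seen, had 163, 448, 340 and 489 normalized counts in replicates 1 to 4 of Brap LKO, against 66.1, 13.2, 6.31 and 127 in replicates 1 to 4 of Brap F/F (log2 fold change 3.44, limma adjusted p = 0.0974). The most abundant genes per length, Aldoa and Anxa5, had log2 fold changes of 0.05 and 0.32 (limma adjusted p = 0.827 and 0.253).

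In the IGF axis, 1 of 17 tested genes rose, 0 fell and 11 had a log2 fold change above 0, with a median of 0.10. An unadjusted p under 0.05 was reached by 5, and edgeR called 1 and DESeq2 2. Igfbp7, a secreted IGF-binding protein, had 2572, 2193, 2617 and 2399 normalized counts in replicates 1 to 4 of Brap LKO, against 1220, 1739, 1761 and 1533 in replicates 1 to 4 of Brap F/F (log2 fold change 0.66, standard error 0.12, limma adjusted p = 0.0481). This call was lost on leaving out any of the 8 livers (0.0555 to 0.165), with a minimum mean of 20 (0.0542) and with replicate number as a block (0.0771). The abundant binding proteins Igfbp4 and Igfbp2 had log2 fold changes of -0.04 and -0.09 (limma adjusted p = 0.866 and 0.835), and Igf2r, the clearance receptor of IGF2, one of 0.06 (limma adjusted p = 0.677).

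The LIN28 and let-7 axis, which sets the level of Igf2bp genes during development, had 0 of 15 tested genes past the threshold with limma, 1 at an unadjusted p under 0.05, 0 with edgeR and 1 with DESeq2, while 8 log2 fold changes were above 0 and the median was 0.02. Its most abundant genes per length, Tut7 and Dicer1, had log2 fold changes of 0.27 and 0.02 (limma adjusted p = 0.0750 and 0.943). Hmga2 had at most 1 read in any liver, and Lin28a and Lin28b were not analysed here. Of 28 tested regulators of Afp and H19, 0 passed with limma or edgeR, 1 with DESeq2, and 6 had an unadjusted p under 0.05, which 15.8% of all tested genes had. Of the 28, 15 had a log2 fold change above 0, with a median of 0.05. Zhx2 and Zbtb20, repressors that shut Afp down after birth, had log2 fold changes of -0.07 and 0.32 (limma adjusted p = 0.721 and 0.372), and the abundant factors Cebpa and Hnf4a 0.05 and 0.05 (limma adjusted p = 0.845 and 0.875).

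Relatives of Gpc3 and of Scd2 gave no call with limma or edgeR, but some with DESeq2. Of 21 tested glypican and heparan sulfate genes, 0 passed with limma or edgeR, 1 with DESeq2, and 3 had an unadjusted p under 0.05, with 12 log2 fold changes above 0 and a median of 0.03. Sdc4 and Hs6st1, the most abundant per length, had log2 fold changes of -0.36 and -0.18 (limma adjusted p = 0.140 and 0.465). Of 20 tested genes of desaturation and lipogenesis, 0 passed with limma or edgeR, 2 with DESeq2, and 3 had an unadjusted p under 0.05, with 4 of 20 log2 fold changes above 0 and a median of -0.16. Fads3 of this list, chosen after its values were seen, had every Brap LKO liver above every Brap F/F liver, as Scd2 did. It had 138, 104, 144 and 191 normalized counts in replicates 1 to 4 of Brap LKO, against 47.9, 53.9, 75.7 and 77.5 in replicates 1 to 4 of Brap F/F. Its log2 fold change was 1.16 (limma adjusted p = 0.0534).

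Scd1, the adult desaturase and a neighbour of Scd2, had 122553, 137778, 199628 and 163745 normalized counts in replicates 1 to 4 of Brap LKO, against 103919, 454565, 659099 and 130985 in replicates 1 to 4 of Brap F/F. Brap F/F replicates 2 and 3 were the highest of the 8 livers, and the log2 fold change of -0.72 had an adjusted p of 0.553 from limma. Thrsp, a lipogenic gene, had one of -0.44 (limma adjusted p = 0.718). Per kb of the longest transcript Scd1 had a mean of 51021 normalized counts over the 8 livers and Scd2 one of 40.6.

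Of 18 tested proliferation genes, 0 passed with limma, edgeR or DESeq2 and 0 had an unadjusted p under 0.05, with 8 log2 fold changes above 0 and a median of -0.16. Pcna and Rrm2, the most abundant per length, had log2 fold changes of -0.21 and 0.09 (limma adjusted p = 0.367 and 0.907). Of 8 tested erythroid genes, which fetal liver expresses as a blood-forming organ, 0 passed with limma, edgeR or DESeq2 and 0 had an unadjusted p under 0.05, with 1 log2 fold change above 0 and a median of -0.08. Alas2 and Hbb-bs, the most abundant per length, had log2 fold changes of -0.09 and -0.06 (limma adjusted p = 0.525 and 0.945).

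**Figure D4:**
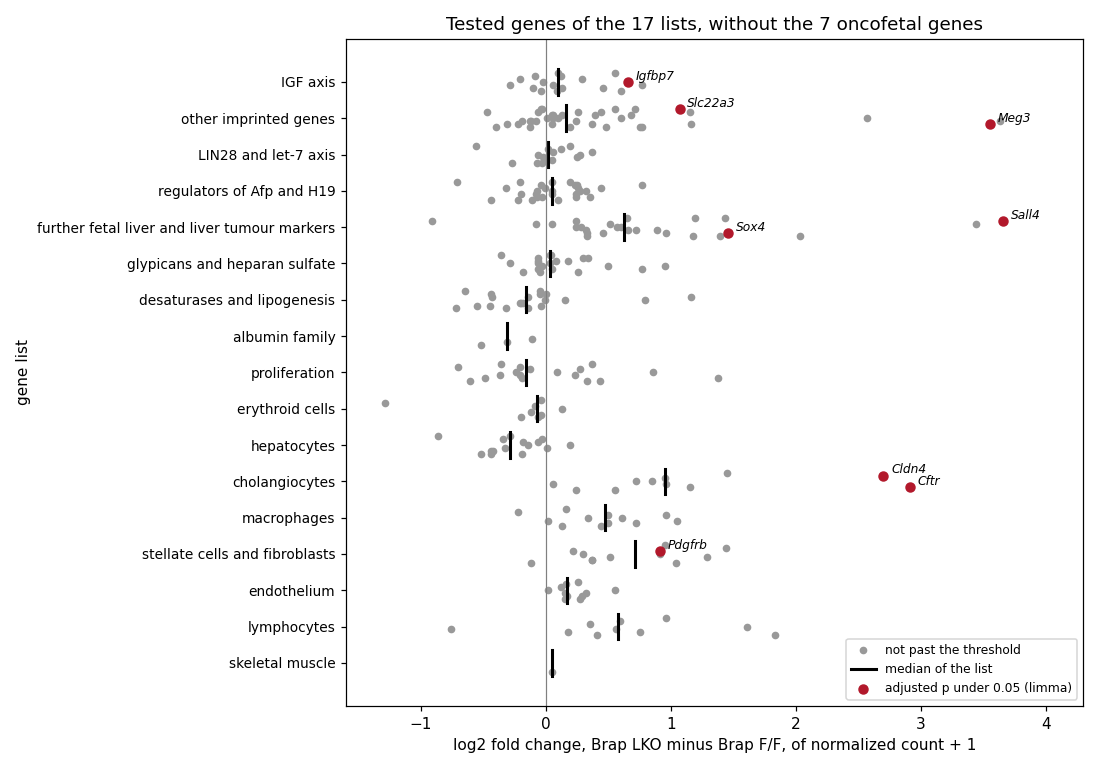
Log2 fold change (horizontal axis, Brap LKO minus Brap F/F, of normalized count plus 1) of each tested gene of the 17 lists (vertical axis), with a black bar at the median of the list and with genes past an adjusted p of 0.05 (limma) in red and named. The 8 red genes are all above 0, and the medians of cholangiocytes (0.95), stellate cells and fibroblasts (0.71) and fetal liver and liver tumour markers (0.62) are the farthest from 0.

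Around the 7 genes, 34 other tested genes lay within 250 kb, of which 1 was higher and 0 lower, with 6 at an unadjusted p under 0.05, as 15.8% of all tested genes were. Gpnmb, a membrane glycoprotein of macrophages, 14.3 kb from Igf2bp3, had 31.0, 17.8, 32.4 and 36.4 normalized counts in replicates 1 to 4 of Brap LKO, against 3.42, 6.10, 3.15 and 11.8 in replicates 1 to 4 of Brap F/F (log2 fold change 2.20, standard error 0.40, limma adjusted p = 0.0480). It was higher in 4 of 4 Brap LKO livers, and the call was lost without any 1 of 7 livers, all but Brap F/F replicate 4 (0.0743 to 0.165), without Brap F/F replicates 2 and 3 together (0.0945), with a pseudocount of 0.5 (0.0505) and under quantile normalization (0.0657). With replicate number as a block the call of Gpnmb was lost too (limma adjusted p = 0.0659). On the other side of Igf2bp3, Tra2a had a log2 fold change of 0.24 (limma adjusted p = 0.258). Beside H19, Mrpl23 at 34.8 kb had 0.08 and Lsp1 at 80.7 kb 0.85 (limma adjusted p = 0.860 and 0.0567). Beyond Igf2 the nearest tested gene, Tspan32 at 338 kb, had 0.75 (limma adjusted p = 0.361). Ccdc160 beside Gpc3, Senp2 and Tra2b beside Igf2bp2 and Scd3 beside Scd2 had log2 fold changes of 0.25, -0.17, -0.03 and -0.45 (limma adjusted p = 0.791, 0.365, 0.917 and 0.823).

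Bile duct cells line the channels that carry bile out of the liver. Of 11 tested cholangiocyte genes, 2 rose, 0 fell and 11 had a log2 fold change above 0, with a median of 0.95, also with 2 genes at their lower bounds. An unadjusted p under 0.05 was reached by 8, and edgeR called 1 and DESeq2 4. Cftr, the chloride channel of bile ducts and the gene closest in pattern to Scd2, had 16.4, 16.1, 6.07 and 17.7 normalized counts in Brap LKO replicates 1 to 4 and at most 2 reads in a Brap F/F liver, at least 4.48-fold higher against the floor (limma adjusted p = 0.0331). Cldn4, a tight junction gene, had 10.9, 4.25, 9.11 and 21.8 and at most 1 read in a Brap F/F liver, at least 3.67-fold higher (limma adjusted p = 0.0494). The call of Cftr was lost without Brap LKO replicate 1, 2 or 4 or Brap F/F replicate 1 or 2 (0.0598 to 0.133) and under quantile normalization (0.0594). That of Cldn4 was lost without any 1 liver except Brap LKO replicate 2 (0.0534 to 0.174) and with pseudocounts of 0.5 and 5 (0.0547 and 0.0723), quantile normalization (0.0963), robust eBayes (0.0506), edgeR (0.0583) and no Brap F/F replicates 2 and 3 (0.0761). Both calls were also lost with replicate number as a block (limma adjusted p = 0.0771 for Cftr and 0.0789 for Cldn4).

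The summed normalized count of the 12 cholangiocyte genes was 2294, 2298, 2002 and 3922 in replicates 1 to 4 of Brap LKO, against 1693, 1328, 1171 and 2200 in replicates 1 to 4 of Brap F/F. It was highest in Brap LKO replicate 4 and lowest of the Brap LKO livers in replicate 3, as were H19 and Scd2. Much of this sum was Spp1, with 1211, 1146, 969 and 2254 normalized counts in replicates 1 to 4 of Brap LKO. Among these livers Cftr was also lowest in replicate 3 (6.07), but Krt7 was lowest in replicate 1 (28.2) and Cldn4 in replicate 2 (4.25). Spp1, the most abundant gene of the list per length, had a log2 fold change of 0.95 (limma adjusted p = 0.198). No marker of the list was at or under 3 reads in every liver. The part of bile duct cells in the levels of the 7 genes was not tested, and in bulk tissue more or fewer cells of a type and more or less RNA per cell cannot be told apart.

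Of 12 stellate cell and fibroblast genes, 1 rose, 0 fell and 11 were above 0, with a median log2 fold change of 0.71. An unadjusted p under 0.05 was reached by 7, and edgeR called 2 and DESeq2 5. Pdgfrb, the growth factor receptor of stellate cells, had 428, 358, 476 and 601 normalized counts in replicates 1 to 4 of Brap LKO, against 212, 223, 241 and 305 in replicates 1 to 4 of Brap F/F (log2 fold change 0.91, standard error 0.17, limma adjusted p = 0.0494). Its call was lost without any 1 of 7 livers, all but Brap F/F replicate 4 (0.0509 to 0.150), without Brap F/F replicates 2 and 3 together (0.106), with a pseudocount of 0.5 (0.0505), a minimum mean of 20 (0.0549) and quantile normalization (0.0674). The sum of the list was 11231, 8772, 13304 and 11463 in replicates 1 to 4 of Brap LKO, against 5740, 9212, 9841 and 7218 in replicates 1 to 4 of Brap F/F. Its most abundant genes, Dcn and Reln, had log2 fold changes of 0.37 and 0.37 (limma adjusted p = 0.427 and 0.619), no marker was at or under 3 reads in every liver, and the part of these cells in the levels of the 7 genes was not tested.

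Markers of other cells gave no call with limma. Of 12 macrophage genes, 0 passed with limma or edgeR, 2 with DESeq2, and 4 had an unadjusted p under 0.05, with 11 log2 fold changes above 0 and a median of 0.47. Their sum was 12907, 10891, 7155 and 9190 in replicates 1 to 4 of Brap LKO, against 7684, 7781, 7102 and 9891 in replicates 1 to 4 of Brap F/F, and the most abundant, Cd5l and Clec4f, had log2 fold changes of 0.13 and 0.02 (limma adjusted p = 0.807 and 0.960). Of 10 lymphocyte genes, 0 passed with limma or edgeR, 1 with DESeq2, and 3 had an unadjusted p under 0.05, with 9 log2 fold changes above 0 and a median of 0.58. Cd4 and Nkg7 had log2 fold changes of 0.56 and 0.18 (limma adjusted p = 0.392 and 0.835).

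Of 11 endothelial genes, 0 passed with limma or edgeR, 1 with DESeq2, and 1 had an unadjusted p under 0.05, with 11 log2 fold changes above 0 and a median of 0.17. Clec4g and Fcgr2b had 0.16 and 0.15 (limma adjusted p = 0.459 and 0.594). Of 15 hepatocyte genes, 0 passed with limma, edgeR or DESeq2, 2 had an unadjusted p under 0.05 and 2 a log2 fold change above 0, with a median of -0.29. Their sum was 3269373, 3346533, 4042551 and 3260218 in replicates 1 to 4 of Brap LKO, against 3852385, 5238786, 4428943 and 4494885 in replicates 1 to 4 of Brap F/F, and Apoa1, the most abundant beside Alb, had a log2 fold change of 0.01 (limma adjusted p = 0.985). Of the skeletal muscle genes, 1 was tested, and 0 passed with limma, edgeR or DESeq2 or had an unadjusted p under 0.05. This was Mylpf, with a log2 fold change of 0.05 (limma adjusted p = 0.950).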

How the data were processed

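Liver mRNA was sequenced as single-end reads, and 0 of the per-liver columns were left out. The authors aligned reads to mm10 with STAR 2.6.0c. How reads were counted, on which annotation and with which strand, is not given in the sources used here. The signal that the authors deposited is a read count per gene over the DESeq2 size factor of the liver. A DESeq2 table of the authors with fold changes and p-values was not used. All values (100%, within 0.01 of a read) were whole multiples of 1 read, so reads were recovered.

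limma 3.58.1 in R 4.3.3 (lmFit, eBayes with a trend, no covariate) was applied to log2(normalized count + 1) of the 15352 genes with a mean of at least 5. DESeq2 1.42.0 and the quasi-likelihood test of edgeR 4.0.16 on the recovered reads were alternatives. edgeR, on the same 15352 genes, called 108 higher and 14 lower. DESeq2, on all 24451 genes, called 448 and 159, and on the 15352 genes 455 and 170, a setting added after seeing the data. Positions, lengths and overlaps came from GENCODE M21, which held 24430 of the genes, and sequences from RefSeq. Where no liver of a group had over 3 reads, the fold is a lower bound, with 3 reads in each liver of that group. Reads were not collapsed to molecules here, so intervals and floors cover counting error only.

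The members and the lists were chosen with earlier results of these data known. Named genes were those past the threshold on a list or within 250 kb, the 2 most abundant per length of each list, the nearest tested gene on each side, and the 3 most alike. A gene that this rule names is not reported here. Other settings were pseudocounts of 0.5 and 5, a minimum mean of 20 or none, scaling by quantiles, totals or TMM, robust eBayes, a replicate block, a covariate for the lower or higher series of animal numbers (3 and 1 Brap LKO livers, 1 and 3 Brap F/F livers), leaving out each liver and, chosen after seeing the data, leaving out Brap F/F replicates 2 and 3. Python 3.11.15 with pandas 2.3.3, scipy 1.17.1 and matplotlib 3.10.9 were used.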

Additional observations from a re-analysis of the deposited data

Results flagged for a closer look

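In 12 of 150 groups of 4 livers (8%), 1 liver lay far from the other 3 for its group's range. The cutoff would give about 5% for independent values from a normal distribution. Counts near 0 with ties, and sums over listed genes, are not such values, so 5% is only a rough guide here. The 7 genes and others in these groups were also chosen for their values, so nothing is read from the difference. Among the 7 genes these were Igf2 in Brap LKO replicate 4 (37.4 normalized counts), Afp in Brap LKO replicate 3 (539) and Igf2bp2 in Brap LKO replicate 3 (4.05, the lowest). Among other named genes they were Cftr in Brap LKO replicate 3 (6.07), Rrm2 in Brap LKO replicate 4 (293), Scd3 in Brap LKO replicate 4 (8.32), Clec4g in Brap F/F replicate 3 (1012), Sall4 in Brap F/F replicate 4 (2.94) and Cldn4 in Brap F/F replicate 1 (0). No Brap F/F liver had over 3 reads of Sall4 or over 1 of Cldn4, so at this depth these livers cannot be told from the other 3. Among the sums over lists they were the cholangiocyte genes in Brap LKO replicate 4 (3922), the hepatocyte genes in Brap LKO replicate 3 (4042551) and the glypican and heparan sulfate genes in Brap F/F replicate 1 (48043). Brap LKO replicates 3 and 4 held 8 of the 12.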

How the results depend on the processing

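Of the 7 log2 fold changes, only that of Igf2 changed sign, to -0.25 without Brap LKO replicate 4. That of Igf2bp3 moved from 4.01 to 2.54 with a pseudocount of 5, 4.79 with edgeR and 4.93 with DESeq2. With edgeR and DESeq2, that of H19 moved from 5.25 to 7.61 and 7.63, of Igf2 from 0.83 to 2.34 and 2.44 and of Afp from 1.77 to 2.47 and 2.47. Under quantile normalization Igf2 had 0.31 and Gpc3 0.13 in place of 0.34, and with the animal number series as a covariate Igf2 had 1.95, H19 6.66 and Gpc3 0.70. Most knockouts (3 of 4) have a number of the lower series and most controls (3 of 4) one of the higher, so series and group are in part confounded. The cause was not tested. Leaving out 1 liver gave 3.97 to 6.57 for H19, -0.25 to 1.32 for Igf2, 0.92 to 2.27 for Afp, 0.06 to 0.46 for Gpc3, -1.17 to -0.49 for Igf2bp2, 3.70 to 4.28 for Igf2bp3 and 0.95 to 1.19 for Scd2. With a minimum mean of 20, Igf2, Igf2bp2 and Igf2bp3 were left out.

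The 102 higher genes became 62 under quantile normalization, 459 with the same total per liver and 448 with DESeq2 on all 24451 genes (455 on the 15352 genes), and the 16 lower genes 9 with a minimum mean of 20, 159 with DESeq2 (170 on the 15352 genes) and 47 without Brap F/F replicates 2 and 3. This setting and DESeq2 on the 15352 genes were chosen after seeing the data. Without 1 liver these were 11 (without Brap LKO replicate 1) to 178 (without Brap F/F replicate 4) and 4 (with Brap F/F replicate 2 left out) to 54 (with Brap F/F replicate 4 left out). The 8 called genes of the lists became 3 with a minimum mean of 20, 5 under quantile normalization, 24 with the same total and 29 with DESeq2 (30 on the 15352 genes), and 0 to 11 without 1 liver. The 1 called neighbour became 0 with a pseudocount of 0.5, a minimum mean of 20, quantile normalization or neither Brap F/F replicate 2 nor 3, 2 with the same total and 3 with DESeq2 on either set of genes, and 0 to 1 without 1 liver. Fewer genes were tested with a minimum mean of 20 and fewer livers when some were left out. For the other settings the cause was not tested.

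No label pairs livers of the same replicate number. Deviations of livers with the same number correlated at -0.13, 0.00, 0.20 and 0.29. In 3 of 4 numbers this was the highest of the Brap LKO liver's correlations with the Brap F/F livers, and correlations within a group were not compared. With the replicate block, 80 genes were higher and 15 lower, 10 genes of the lists and 0 neighbours were called, and the calls of Cftr (adjusted p = 0.0771), Cldn4 (0.0789), Gpnmb (0.0659), Igfbp7 (0.0771) and Slc22a3 (0.0617) were lost. Genes with few reads, such as Igf2 and Igf2bp3 in the controls, are limited by depth, and values of at most 3 reads were treated as at the floor and cannot be told from 0. Group sizes of 4, the bulk tissue and the unlike control livers limit every comparison.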
